A study of Mus musculus with 2 samples.

Results

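The AMPA and kainate receptor genes are the 9 mouse genes Gria1, Gria2, Gria3 and Gria4 (AMPA receptor subunits GluA1 to GluA4) and Grik1, Grik2, Grik3, Grik4 and Grik5 (kainate receptor subunits GluK1 to GluK5). An EGR1 peak was assigned to one of them when its centre lay in the gene body or within 10 kb of one of its transcription start sites (TSSs) in GENCODE release M21. By this rule 15 of the 12014 EGR1 peaks lay at 7 of the 9 genes, and Gria4 and Grik1 had 0 peaks. The peaks were measured by ChIP-seq, the sequencing of DNA recovered with an antibody to the transcription factor EGR1, on frontal cortices of male 6-week-old C57BL6N/129SvEv hybrid mice. The labels name no treatment or genetic change, several mice were pooled for each ChIP, and the tissue was not sorted by cell type. There were 2 ChIP replicates, merged by the authors into a single list, and 1 input DNA library from the same kind of tissue for which no values were analysed here. Each peak has a position on the mouse genome build mm10 and an irreproducible discovery rate (IDR). A low IDR means a high and similar rank in the 2 replicates. The list has no read counts and no values of single replicates, so the depth per peak is unknown, no spread between replicates could be computed and no test between conditions exists. The values below are descriptions, and intervals of shares are 95% Clopper-Pearson intervals over peaks, which cover counting error only.

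AMPA and kainate receptors are ion channels opened by glutamate, the main excitatory transmitter of the cortex. AMPA receptors carry most of the fast current at excitatory synapses, and their number at the synapse changes during synaptic plasticity. Kainate receptors act on both sides of the synapse and adjust transmitter release and excitability. GluK1, GluK2 and GluK3 can form channels by themselves, whereas GluK4 and GluK5 bind glutamate with high affinity but need one of the other subunits for a working channel. EGR1 is a zinc-finger factor encoded by an immediate-early gene, whose transcription rises quickly when neurons fire, and it binds GC-rich sites such as GCGTGGGCG and GCGGGGGCG.

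The 29-base windows below show the motif-like sites of the 3 genes with a peak centre within 500 bp of a TSS, Gria2, Gria3 and Grik3. Each was read from mm10 along the strand of the motif, with the site in capitals and 10 bases to each side. Every one of these sites differs from the nearer spelling of the motif at 1 base, given as the base of the motif, its position counted from 1 at the 5′ end of the motif, and the base of the site.
Gria2 site at chr3:80802823-80802831, plus strand, G6C: tcccgggcgcGCGTGCGCGactcgaggca
Gria2 site at chr3:80802866-80802874, minus strand, C8A: ggggcgctgtGCGGGGGAGgggtgggtgc
Gria3 site at chrX:41401260-41401268, plus strand, C2G: gaagtgaggtGGGGGGGCGtggagggggt
Gria3 site at chrX:41401379-41401387, plus strand, G5C: agaggaggagGCGGCGGCGgaggaggatt
Grik3 site at chr4:125490309-125490317, plus strand, C8A: gcgtgtgtgcGCGGGGGAGtacgcggagg
Grik3 site at chr4:125490330-125490338, plus strand, T4C: cgcggagggaGCGCGGGCGgcgggcggcg
Grik3 site at chr4:125490369-125490377, plus strand, C8A: gaggcagggcGCGGGGGAGggggctggga

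The next sequences show peaks away from the main start sites, with sites within 1 base of either spelling in capitals, as read on the plus strand. Grik2 holds the 1 exact motif among the 15 peaks, followed after 2 bases by overlapping sites that differ at 1 base. Gria1 is shown as the AMPA gene whose peak is intronic. The pair of Grik4 sequences are CpG-rich peaks, or the stretch of such a peak outside annotated untranslated exons, and the last Grik4 peak has the lowest CpG ratio of the 15 and no site in capitals.
Grik2 chr10:49782276-49782539, plus strand: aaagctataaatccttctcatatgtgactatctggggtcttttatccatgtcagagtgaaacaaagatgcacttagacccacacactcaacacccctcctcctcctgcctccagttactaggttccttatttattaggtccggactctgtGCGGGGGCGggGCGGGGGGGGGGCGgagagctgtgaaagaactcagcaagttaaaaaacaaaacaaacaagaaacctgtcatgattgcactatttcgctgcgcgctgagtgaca
Gria1 chr11:57013857-57014119, plus strand: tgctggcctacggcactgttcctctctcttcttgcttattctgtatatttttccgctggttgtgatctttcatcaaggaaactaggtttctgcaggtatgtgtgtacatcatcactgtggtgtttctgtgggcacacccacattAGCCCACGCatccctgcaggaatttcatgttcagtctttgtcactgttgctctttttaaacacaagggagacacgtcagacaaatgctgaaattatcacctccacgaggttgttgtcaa
Grik4 chr9:42897414-42897557, plus strand: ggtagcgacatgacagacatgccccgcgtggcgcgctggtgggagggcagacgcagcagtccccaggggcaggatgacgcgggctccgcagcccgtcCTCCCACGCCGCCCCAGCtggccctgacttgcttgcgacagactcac
Grik4 chr9:42897827-42897948, plus strand: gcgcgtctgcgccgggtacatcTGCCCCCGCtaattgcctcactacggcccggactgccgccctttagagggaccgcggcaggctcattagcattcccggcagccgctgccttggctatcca
Grik4 chr9:42846730-42846993, plus strand: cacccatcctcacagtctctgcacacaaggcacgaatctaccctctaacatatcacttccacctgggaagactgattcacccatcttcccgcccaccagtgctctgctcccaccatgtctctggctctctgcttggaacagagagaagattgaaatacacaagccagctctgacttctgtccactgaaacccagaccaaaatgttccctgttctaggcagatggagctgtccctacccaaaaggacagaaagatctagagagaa

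EGR1 peaks were found at 3 of the 4 AMPA genes and 4 of the 5 kainate genes. The same rule found a peak at 39.6% of 21938 protein-coding genes and at 56.5% of the 5007 that are at least 50 kb long, the class to which all 9 receptor genes belong. The median length of the 9 is 319 kb, and only 854 protein-coding genes are longer than Grik3 (223 kb). Most genes of the class are thus shorter than Grik3, and a set of similar length was not compared. A peak centre within 500 bp of an own TSS was found at 3 of the 9 genes, compared with 25.8% of all protein-coding genes and 37% of the long ones. The 3 AMPA genes had 1 peak each, whereas the 4 kainate genes had 12, of which 7 were in Grik4 and 3 in Grik5. Gene lengths ran from 62.5 kb (Grik5) to 694 kb (Grik2), so the counts were also set against length. The windows of the 9 genes together span 2.99 Mb and held 0.502 peaks per 100 kb, which lies between the 0.438 of the assembled genome and the 0.591 of windows of protein-coding genes of at least 50 kb. AMPA windows held 0.264 and kainate windows 0.648 peaks per 100 kb, and without Grik4 and Grik5 the value over the remaining 7 genes was 0.202. That value pools AMPA and kainate genes. By gene, Grik1, Grik2 and Grik3 had 0, 1 and 1 peaks, together fewer than the AMPA genes. The excess of kainate over AMPA peaks therefore rests on Grik4 and Grik5.

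**Figure D1:**
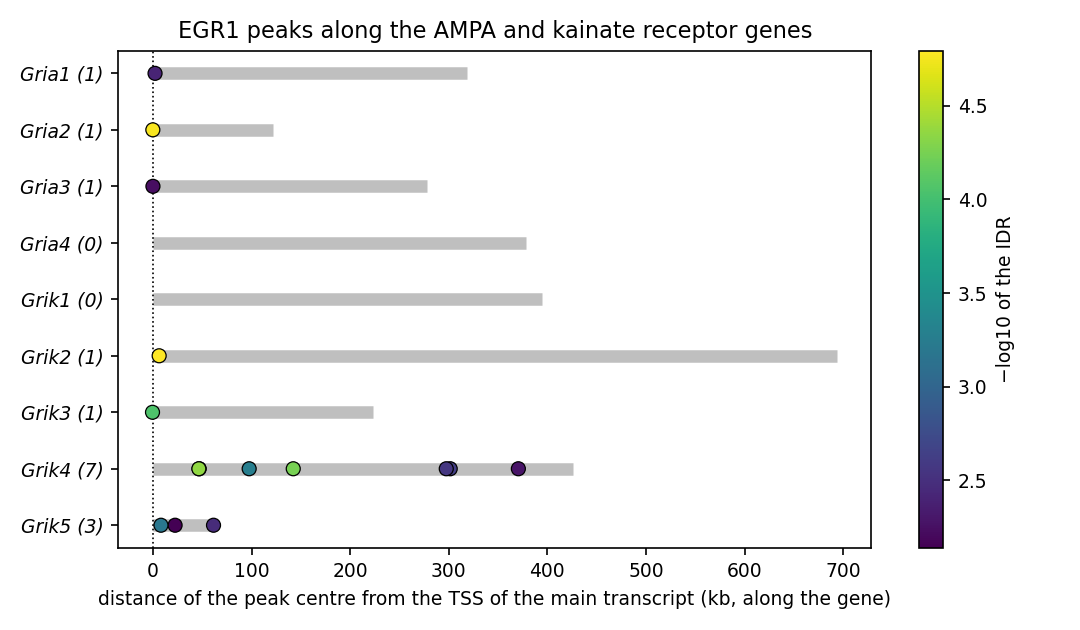
Each row is a receptor gene drawn to scale as a grey bar from the TSS of its main transcript (dotted line at 0), with its number of peaks in brackets; points are peak centres, in kb along the gene, coloured by −log10 of the IDR. Single peaks of Gria1, Gria2, Gria3, Grik2 and Grik3 lie within 6.36 kb of the main TSS, while the 7 peaks of Grik4 start 46.6 kb inside the gene and Gria4 and Grik1 have none.

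Among the AMPA genes, Gria2 had the peak with the lowest IDR. Gria2 encodes the subunit that makes AMPA receptors nearly impermeable to calcium once its transcript has been edited. Its peak (chr3:80802767-80803028) has an IDR of 1.71e-05, and its centre lies 63 bp upstream of the TSS of the main transcript, so that the peak spans the start of the gene. It holds 27 CpGs with a GC content of 68.3%. The observed/expected CpG ratio, the number of CpGs over that given by the C and G content, was 0.89 in the peak and 0.16 in its flanks, the equally wide stretches 5 kb away on either side. Its sites read GCGTGCGCG and GCGGGGGAG and lie 71 and 28 bp from the peak centre on the lower-coordinate side. The next peak near Gria2 (IDR 0.00264) lies 2.44 kb outside its window and was not counted.

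Gria3, an X-linked gene, had a start-site peak of much higher IDR. The peak (chrX:41401218-41401481, IDR 0.00581) has its centre in exon 1, 46 bp downstream of the TSS, and 80.5% of all peaks had an IDR at or below it. It holds 9 CpGs at 57.2% GC, and its CpG ratio was 0.84, against 0.27 in its flanks. Gria2 and Gria3 thus had CpG ratios near each other and IDR values far apart, with 3 times as many CpGs at Gria2.

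Gria1 encodes GluA1, a subunit whose delivery to synapses has been studied widely in plasticity. The Gria1 peak (chr11:57013857-57014119, IDR 0.00389) lies in intron 1, 2.18 kb downstream of the TSS of the main transcript and 942 bp downstream of the start of another of its protein-coding transcripts. It holds 5 CpGs and has a CpG ratio of 0.38. Its GC content of 44.9% is the lowest of the 15 peaks and below the 47.0% of its flanks. Its single site, GCGTGGGCT, carries the substitution G9T and lies 17 bp from the centre. The 1 kb around the main Gria1 TSS had the lowest CpG ratio of the 9 genes, 0.27, and 0 sites within 1 base of the motif.

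Gria4 had 0 peaks in its body of 378 kb and its window. The nearest peak outside the window, 108 kb beyond its edge, has an IDR of 2.08e-06 and lies 125 bp from a TSS of Kbtbd3. The 1 kb around the main TSS of Gria4 holds 49 CpGs, with a CpG ratio of 0.54 and 3 sites within 1 base of the motif, so such sites were present there without a peak. A missing peak says that no interval passed the IDR limit of 2%, not that EGR1 was absent.

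**Figure D2:**
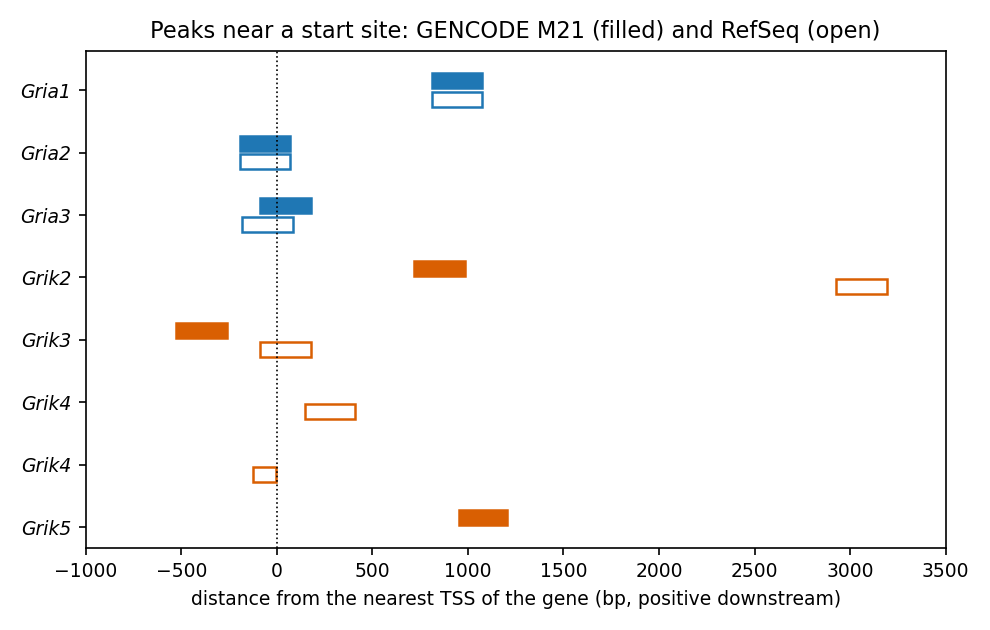
Peaks (bars, drawn at their width) centred at most 2 kb from a TSS of their gene in either annotation, by distance from the nearest own TSS in GENCODE M21 (filled) and in RefSeq (open), for AMPA (blue) and kainate (orange) genes; bars beyond the axis are not drawn. Gria2 gives the same place in both annotations, Grik3 moves from 395 bp upstream to 46 bp downstream, and the 2 Grik4 peaks have a nearby start only in RefSeq.

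Of the kainate genes whose subunits form channels alone, Grik2 and Grik3 had 1 peak each and Grik1 had 0. The Grik2 peak (chr10:49782276-49782539) has the lowest IDR of the 15, 1.61e-05, and 33.2% of all peaks had an IDR at or below it. It lies in intron 2 of the main transcript, 6.36 kb downstream of its TSS and 851 bp downstream of the start of another of its protein-coding transcripts. The nearest RefSeq start is 3.06 kb away. The exact motif GCGGGGGCG lies at chr10:49782426-49782434, 22 bp from the peak centre, and the sites C8G and C2G follow 33 and 38 bp from the centre. The peak has 8 CpGs, 48.5% GC against 34.1% in its flanks, and a CpG ratio of 0.52 against 0.37. Grik2 is the longest of the 9 genes and had the lowest density of those with a peak, 0.142 per 100 kb.

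The Grik3 peak (chr4:125490173-125490436, IDR 8.81e-05) lies upstream of the gene, with its centre 395 bp before the only GENCODE start. A RefSeq model predicted by Gnomon starts 46 bp before the peak centre, inside the peak. The peak is the most CpG-rich of the 15 by number, with 28 CpGs at 73.1% GC, and its CpG ratio was 0.83 against 0.16 in its flanks. Its 3 sites are shown above, and the substitution C8A occurs in 2 of them. A peak with an IDR of 0.00789 lies 21334 bp upstream of the Grik3 TSS, 11.3 kb outside the window.

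Grik1 had 0 peaks in a body of 394 kb, and the nearest peak, with an IDR of 0.0113, lay 98.8 kb outside its window. The 1 kb around its main TSS has a CpG ratio of 0.59 and 4 sites within 1 base of the motif. Gria4 and Grik1 therefore had at least as many such sites around the main TSS as Gria2 and Gria3, which had 2 and 3 and carried a start-site peak. Grik3, with 6, also carried one, whereas Grik4 had the most, 9, and no peak there.

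Grik4 held 7 peaks, more than any other of the 9 genes, and 0 of them within 500 bp of a GENCODE start. Among protein-coding genes, 0.187% had at least 7 peaks, and among those of at least 50 kb 0.659% did (33 of 5007). Most genes of that class are shorter than Grik4, which is 426 kb long and has 309 longer protein-coding genes. Its count was not compared with genes of similar length. The Grik4 density was 1.60 per 100 kb. From the 5′ end of the gene, the first are the neighbouring peaks chr9:42897827-42897948 (IDR 4.4e-05) and chr9:42897414-42897677 (IDR 0.000111) in intron 1, separated by 149 bp, which together span 535 bp and may not be independent of each other. They are followed by chr9:42846730-42846993 in the same intron (IDR 0.00054) and chr9:42802040-42802303 in intron 3 (IDR 5.61e-05). The last 3 are chr9:42646878-42647127 (IDR 0.00278) and chr9:42642869-42643122 (IDR 0.00241) in intron 8, and chr9:42573770-42574019 in intron 13 (IDR 0.00529). The IDR was thus below 0.001 in the 4 peaks of introns 1 and 3 and above it in the 3 peaks further downstream.

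The neighbouring pair differs from the other Grik4 peaks in sequence. The pair has 12 and 24 CpGs and CpG ratios of 0.92 and 0.74, against 0.29 and 0.21 in the flanks, whereas the other 5 peaks have CpG ratios of 0.13 to 0.40. The pair lies 46.6 and 46.9 kb downstream of the main GENCODE TSS. RefSeq, which lists 10 start positions for Grik4 where GENCODE lists 2, has a Gnomon-predicted start at position 42897824, 3 bp from the edge of the narrower peak and 147 bp from the edge of the wider one. An exact GCGGGGGCG occupies chr9:42897818-42897826, in the gap between the pair and directly beside the narrower peak, and so counts as inside neither. Widening the peaks by 50 bp raised the number of peaks with an exact motif from 1 to 2, by this site.

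Of the remaining Grik4 peaks, the one in intron 13 holds 1 site within 1 base, GCGTGGGCA, 58 bp from its centre, and the other 4 hold 0. At the main Grik4 TSS, the 1 kb around the start holds 106 CpGs with a CpG ratio of 0.89, close to that of Grik3 (0.93), but only Grik3 had a peak there. For 6 of the 7 Grik4 peaks, the nearest TSS in GENCODE was not one of Grik4 but that of a small RNA gene inside the Grik4 window. These are the misc_RNA gene Gm24420 (59 bp long, 3 peaks) and the miRNA gene Gm27509 (79 bp long, 3 peaks), at distances of 15.3 to 126 kb.

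Grik5, the shortest of the 9 genes, held 3 peaks and the highest density, 4.14 per 100 kb, with 0 peaks at the start of its main coding transcript. The peak with the lowest IDR (chr7:25063988-25064237, IDR 0.00064) lies in intron 5, 8.18 kb downstream of the coding TSS and 1080 bp downstream of the start of a retained-intron transcript. The peak chr7:25049660-25049909 in intron 11 (IDR 0.00724) has the highest IDR of the 15, a CpG ratio of 0.49 and the site GCGTGGGAG. The third, chr7:25010694-25010949 (IDR 0.0034), is centred in intron 19 and reaches into the last exon, 61.5 kb downstream of the coding TSS. It holds 24 CpGs with a CpG ratio of 0.88, and its flanks are also CpG-rich, with 0.64. The nearest GENCODE TSS to this peak is that of another gene, 4.86 kb away. Only 662 bp outside the Grik5 window lies a further peak, which was not counted. Its IDR of 5.39e-06 is lower than that of all 15 peaks.

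**Figure D3:**
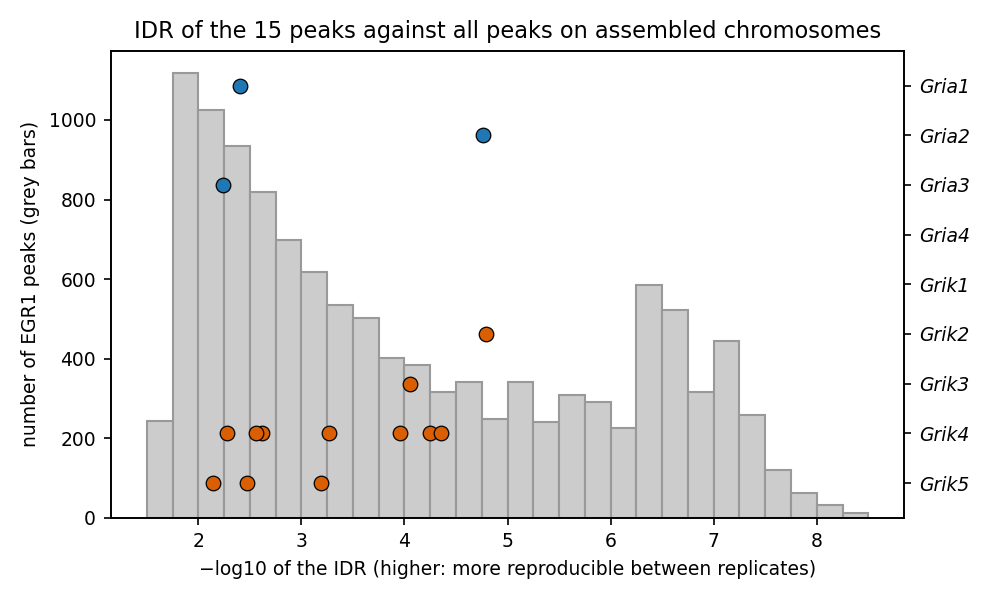
Grey bars count all EGR1 peaks on assembled chromosomes by −log10 of the IDR (left axis), and points show the 15 receptor gene peaks by gene (right axis), AMPA in blue and kainate in orange. All 15 points lie at an IDR of 1.61e-05 or higher, to the left of the second hump of the grey bars.

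Over all 15 peaks, the IDR ran from 1.61e-05 to 0.00724 with a median of 0.00064, compared with a median of 0.000321 and a lower quartile of 2.15e-06 over all peaks. The lowest receptor gene value thus lies above that lower quartile. An IDR of 0.001 or less was found for 8 of 15 (53.3%, interval 26.6 to 78.7%), against 59.6% of all peaks, which lies inside this interval. The peaks within 2 kb of an own TSS numbered 6 of 15 (40%, interval 16.3 to 67.7%), and 63.6% of all peaks on assembled chromosomes, a share inside this interval, were centred this near to a TSS of any gene. Without Grik4 the share was 6 of 8 (75%, interval 34.9 to 96.8%), above rather than below that of all peaks, so the direction rests on Grik4. In the main transcripts, 12 peaks were centred in introns, 1 in an exon and 2 upstream. The rule takes in the whole bodies of long genes, and the intronic share of all peaks was not computed. These counts are therefore not a trait of the receptor gene peaks. All 3 AMPA peaks and 3 of the 12 kainate peaks were within 2 kb of an own TSS. Of these kainate peaks, the 1 of Grik5 counts only through the start of a retained-intron transcript. With TSSs of protein-coding transcripts only, 5 of the 15 peaks were within 2 kb.

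The exact motif was in 1 of 15 peaks (6.67%, interval 0.169 to 31.9%) and in 16.6% of all peaks, and the interval includes that share. A site within 1 base was in 10 of 15 (66.7%, interval 38.4 to 88.2%) and in 69.8% of all peaks. The 10 peaks held 18 such sites, some overlapping. The most frequent substitution among them was C8A, in 5 sites, 2 of them in the Grik3 peak. Over all peaks, C8A accounted for 6.58% of 14046 such sites and the exact motif for 15.3%. The most frequent substitutions over all peaks, C2A (10.7%) and C8T (8.97%), were absent from the 18, a number too small to compare shares. Seen from the genome, 7559 exact motifs lie on the assembled chromosomes and 28.4% of them are inside a peak. The windows of the 9 genes hold 6, all GCGGGGGCG, with 3 in Grik4, 2 in Gria3 and 1 in Grik2, and only that of Grik2 is inside a peak. The Gria3 motifs, in introns 3 and 13, lie 115 and 253 kb from the nearest peak, and those of Grik4 outside the pair lie 18.9 and 52.0 kb away. The 300-base RefSeq promoters of the same build, given for 6 of the 9 genes (Gria2, Gria4, Grik2, Grik3, Grik4 and Grik5), held 0 exact motifs, compared with 3.47% of 32851 promoters.

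**Figure D4:**
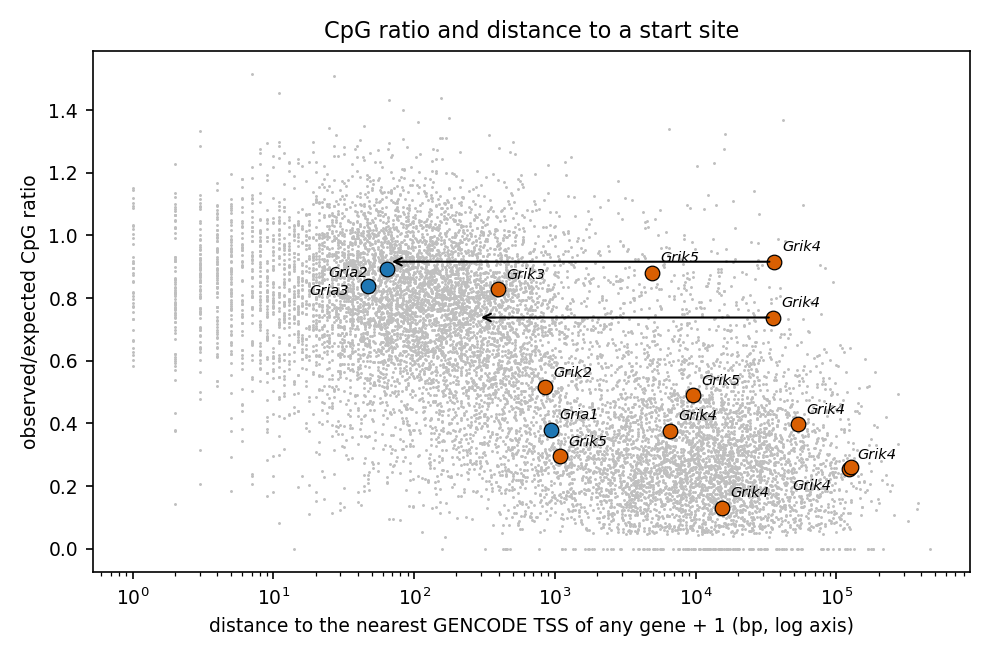
Observed/expected CpG ratio of each peak (vertical axis) against the distance to the nearest GENCODE TSS of any gene plus 1 bp (log axis), with all peaks in grey, AMPA peaks in blue and kainate peaks in orange. Arrows move the pair of CpG-rich Grik4 peaks to their distance from the predicted RefSeq start, 278 and 64 bp.

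By CpG ratio, the 15 peaks fell into high and low ones. Of these, 6 had a CpG ratio of at least 0.7 (Gria2, Gria3, Grik3, the Grik4 pair and the intron 19 peak of Grik5). The other 9 had 0.13 to 0.52. High ratios are also common over all peaks on assembled chromosomes, whose median was 0.60 and upper quartile 0.825. The share of all peaks at 0.7 or more was not computed. A high ratio did not always go with many CpGs. The Gria3 peak holds 9, as does the intron 11 peak of Grik5, which has a ratio of 0.49. The median ratio of the 15 was 0.49, between the 0.76 of all peaks within 2 kb of a TSS and the 0.29 of those beyond. The CpG ratio was higher in the peak than in its flanks for 14 of 15 peaks, the exception being a Grik4 peak of intron 8 (0.25 against 0.32). Over all peaks on assembled chromosomes with flanking sequence, this held for 85.4%. The GC content was higher for 13 of 15, against 90.7% of all such peaks. The pair of Grik4 peaks and the last Grik5 peak combined a high CpG ratio with a large distance from the GENCODE starts of their genes. That Grik5 peak, however, lies 4.86 kb from a TSS of another gene.

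**Figure D5:**
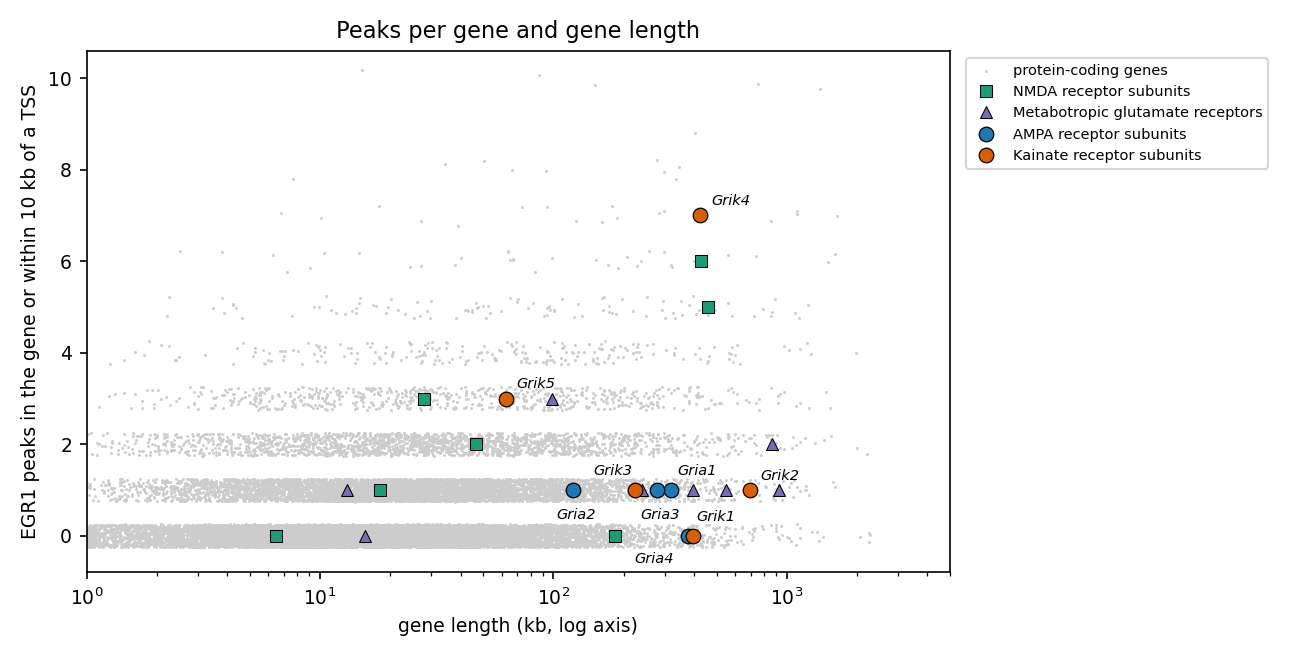
EGR1 peaks in the gene or within 10 kb of a TSS (vertical axis) against gene length (kb, log axis) for protein-coding genes (grey, spread vertically for visibility), AMPA (blue circles) and kainate (orange circles) subunits, NMDA receptor subunits (green squares) and metabotropic glutamate receptors (triangles); genes with more than 10 peaks or shorter than 1 kb are not drawn. Grik4 has 7 peaks at 426 kb and Grik5 has 3 at 62.5 kb, while Gria4 and Grik1, at 378 and 394 kb, have 0.

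Other genes of glutamate signalling were counted by the same rule. It found a peak at 39.6% of all protein-coding genes and at 56.5% of those of at least 50 kb. For a peak within 500 bp of a TSS, the shares were 25.8% and 37%. Median gene lengths were 46.5 kb for the NMDA, 318 kb for the metabotropic and 1106 kb for the delta receptor genes. Among the NMDA receptor subunits, which form the calcium-permeable receptors that detect coincident activity, 5 of 7 genes had a peak and 2 had one within 500 bp of a TSS. These are Grin1 (IDR 4.36e-09) and Grin2a (IDR 5.65e-07), and Grin3a and Grin3b had 0 peaks. Among the metabotropic glutamate receptors, which signal through G proteins, 7 of 8 had a peak, all but Grm6, and 4 had one at a TSS, with the lowest IDR at Grm7 (2.28e-07), Grm3 (2.54e-07) and Grm5 (4.91e-07). The start-site peaks of Grin1, Grin2a, Grm7, Grm3 and Grm5 had a lower IDR than any AMPA or kainate peak. That of Grm4, named after its value was seen, had a higher one than all of them (IDR 0.015). Grm4 had 3 peaks, however, and one away from its start sites had an IDR of 6.61e-08, the lowest among the metabotropic genes. The median IDR was 0.000183 over the 17 NMDA peaks and 4.97e-07 over the 10 metabotropic ones. Within 2 kb of a TSS of any gene lay 9 of these NMDA and 8 of these metabotropic peaks, against 6 of the 15 receptor gene peaks. Over all peaks, the median IDR was 9.9e-05 within 2 kb of a TSS and 0.00125 beyond, so the family medians also differ by location. Both delta receptor genes had peaks, 0 of them within 500 bp of a TSS. The numbers of genes are small and the lists were not tested against each other.

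Genes whose products act on AMPA and kainate receptors were counted in the same way, and the same shares of all genes apply to each list. Median gene lengths ran from 9.035 kb (organisers) to 88.1 kb (kainate receptor auxiliary subunits). Of the 14 AMPA receptor auxiliary subunits, which steer trafficking and gating, 11 had a peak, against 39.6% of all protein-coding genes, and 7 had one within 500 bp of a TSS, against 25.8%. Among the 8 of them that are at least 50 kb long, 7 had a peak and 4 had one at a TSS, against 56.5% and 37% of genes of that length. The lowest IDR values at a start site were those of Cacng3 (3.81e-07), Shisa7 (7.43e-07) and Cnih2 (6.04e-05), while Cacng7, Gsg1l and Frrs1l had 0 peaks. Of the kainate receptor auxiliary subunits, Neto1 had a start-site peak (IDR 1.71e-07) and Neto2 had 0 peaks. Among scaffolds and trafficking partners, 5 of 7 had a peak and 2 had one at a TSS, Dlg4 (IDR 1.08e-06), which encodes PSD-95, and Pick1 (IDR 0.011), while Dlg1 and Grip2 had 0 peaks. Of the secreted and membrane organisers that cluster these receptors, 3 of 5 had a peak. Nptx1, a neuronal pentraxin gene, had one at its TSS (IDR 5.25e-08), and C1ql2 and C1ql3 had 0. For the enzymes that edit receptor transcripts, Adar had a start-site peak (IDR 9.61e-06), whereas Adarb1, whose product edits the calcium-permeability site of GluA2, had 0 peaks.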

How the data were processed

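EGR1 peaks were called by the authors in 2 ChIP replicates with SPP on reads trimmed and mapped to mm10 with Bowtie. The submitters' processing notes also name Bowtie2 2.2.9, bedtools 2.26.0 and cutadapt. Peaks within an IDR of 2% were merged. The deposited list gives the position and IDR of each peak, the latter comparable to a q-value. Whether positions count from 0 or 1 is not given in the sources used here, so they were read as BED and are printed counted from 1.

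Genes and TSSs were taken from GENCODE M21 (all transcripts), with RefSeq starts on the same build as a second annotation. The main transcript, used for introns, exons and the main TSS, is the protein-coding one with the best transcript support level, and the longest span among equals. Motifs (GCGTGGGCG or GCGGGGGCG, both strands) and CpG ratios were read from GRCm38.p6, for the 11938 peaks on assembled chromosomes (76 on scaffolds were left out). No test was run, since the list is a single merged one.

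All 9 members are named with every peak. Of the other gene lists, at most 3 genes each were named, those with the lowest IDR within 500 bp of a TSS, besides genes without a peak and genes with the nearest TSS to a member peak, of which 1 is not reported here. The members and lists were chosen with earlier results of these data known. The Gria1, Gria3 and Grik1 promoters were not in the RefSeq promoter table used. A peak list holds no expression, so the tissue was not checked against marker genes. Read depth, input signal and single replicates were not analysed here.

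Python 3.11.15, numpy 2.4.6, pandas 2.3.3, scipy 1.17.1, pysam 0.24.0, matplotlib 3.10.9 and samtools 1.23.1 were used. Assignment and motif search were tested on simulated data. Alternatives changed the window, the TSS set, the IDR limit, the distance and the motif rule.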

Additional observations from a re-analysis of the deposited data

How the results depend on the processing

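Of 88 alternative values, 75 stayed within 1.5 times the reported one and 13 did not. With only peaks of an IDR of 0.001 or less, 8 receptor gene peaks were left, with a median IDR of 7.21e-05 and 0.268 peaks per 100 kb. They lay at 5 genes in place of 7, and 2 in place of 3 genes had a start-site peak. Gria1 and Gria3 lost their peaks, which left Gria2 as the only AMPA gene with one. A window of 25 kb around each TSS gave 16 peaks and a median IDR of 0.00153. Without peaks nearest to a TSS of another gene, 8 peaks remained, with a median IDR of 0.000364 and 0.268 per 100 kb. A limit of 1 kb in place of 500 bp gave 5 genes with a start-site peak. The exact motif was in 2 peaks widened by 50 bp to each side, and 10 held it with at most 1 base different. Without Grik4, an alternative chosen after seeing the data, 8 peaks were left, with a median IDR of 0.00202 and 0.314 per 100 kb. RefSeq TSSs, also added then, gave 4 genes with a start-site peak and 8 peaks within 2 kb. The number of genes with a peak, 5 at the lowest, and the median CpG ratio stayed within 1.5 times under every alternative run. No paired analysis was possible because the replicates were merged before deposit and no group was compared with another. For the same reason no replicate could be left out, and without read counts the depth behind a missing peak is unknown.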
